A study of Mus musculus with 15 samples.

Results

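Whole-lung RNA-seq counts of 10 genes, 3 of the transforming growth factor beta (TGF-beta) system and 7 of the secreted or cross-linked matrix, were described across an allergic asthma model in the mouse. The genes were listed by symbol, with earlier results of these data known: Tgfb1, Tgfb2, Tgfbi, Spp1, Tnc, Thbs1, Postn, Sparc, Fn1 and Lox, 10 of the 24054 symbols counted. Their shares of calls are therefore not those of genes picked blind to the data. All 10 passed the filter on low counts, and 15905 genes in all were tested. The 15 libraries came from wild-type female Balb mice, 5 in each of 3 groups, and each library is labelled as a biological replicate. The anti-IL-4Ra group was sensitised to ovalbumin (OVA) by intraperitoneal injection, challenged with nebulised OVA and treated with 30 mg/kg of an IL-4Ra-directed monoclonal antibody. The OVA group had the same allergen and an isotype control antibody, and the saline group was sham-sensitised and also received the isotype control. IL-4Ra is the chain shared by the receptors of the type 2 cytokines IL-4 and IL-13. The sources used here give neither age, nor the times of dosing and tissue collection, nor sequencing batches.

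TGF-beta is secreted bound to its own propeptide and to latent TGF-beta binding proteins, and is set free by integrins, by proteases or by thrombospondin-1. It then signals through a pair of receptor kinases to SMAD proteins, which turn on genes of matrix and repair. Matricellular proteins such as osteopontin, tenascin-C, periostin and SPARC sit in the matrix without forming its main scaffold and change how cells attach and move. In airway disease this system is known for its part in thickening of the airway wall, and periostin is known as a gene that epithelial cells turn on in response to IL-13.

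In OVA lungs 3 of the 10 genes rose against saline, namely Spp1, Tnc and Thbs1, against 19.3% of all genes tested. Another 2 fell, namely Tgfb2 and Sparc, against 17.8% of all. Both falls lost their call with the share of counts on Rn45s, the ribosomal RNA precursor, as a covariate. That covariate left 752 calls over all genes, against 5898 without it. The OVA and saline libraries did not overlap in the share, so it and the allergen cannot be fully told apart. Sparc also lost its call in 5 of the 15 fits that leave out 1 library. In anti-IL-4Ra lungs 1 of the 10 genes differed from OVA lungs by the test, against 0.302% of all genes tested. It was Tgfbi, 2.00-fold higher in the antibody group. Tgfbi did not pass the test between OVA and saline lungs. Tgfb1, the best-known of the ligands, stood at the same mean in all 3 groups to within its spread, and Postn passed the test in no comparison.

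The sequences before the start sites of Tgfbi, Spp1 and Tgfb2 are shown because these 3 genes passed the test in more than 1 comparison. They run from 250 bases before to 50 bases after the start given by RefSeq on mouse build GRCm38.p6. Capitals mark CAGAC or its other strand GTCTG, the core that SMAD proteins recognise, and TATAAA, the letters of a TATA box. Both were searched on both strands and at any place in the window. The Tgfbi window lies at chr13:56609336-56609635 on the plus strand, the Spp1 window at chr5:104434861-104435160 on the plus strand (the first of 2 listed starts), and the Tgfb2 window at chr1:186705940-186706239 on the minus strand.
Tgfbi: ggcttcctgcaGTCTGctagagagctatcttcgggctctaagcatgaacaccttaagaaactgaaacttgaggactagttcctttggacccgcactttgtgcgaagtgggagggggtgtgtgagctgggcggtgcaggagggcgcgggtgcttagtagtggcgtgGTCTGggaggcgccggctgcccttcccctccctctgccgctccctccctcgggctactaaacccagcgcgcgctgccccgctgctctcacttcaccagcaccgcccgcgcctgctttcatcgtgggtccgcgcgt
Spp1: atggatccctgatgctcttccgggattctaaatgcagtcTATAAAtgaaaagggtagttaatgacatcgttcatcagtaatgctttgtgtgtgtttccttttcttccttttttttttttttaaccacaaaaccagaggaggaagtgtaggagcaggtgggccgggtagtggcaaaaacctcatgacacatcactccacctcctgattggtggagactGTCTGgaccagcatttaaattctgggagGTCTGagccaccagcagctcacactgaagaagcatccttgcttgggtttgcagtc
Tgfb2: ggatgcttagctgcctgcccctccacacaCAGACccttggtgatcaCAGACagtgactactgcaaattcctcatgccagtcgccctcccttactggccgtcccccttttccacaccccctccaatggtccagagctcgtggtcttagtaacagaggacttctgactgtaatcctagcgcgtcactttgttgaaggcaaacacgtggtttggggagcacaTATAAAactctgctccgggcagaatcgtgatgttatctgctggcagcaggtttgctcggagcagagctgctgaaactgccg
The Tgfbi window held 2 SMAD cores, at 239 and 85 bases before the start, and no TATAAA. The Spp1 window held 2 SMAD cores at 33 and 5 bases before the start, and its TATAAA stood 211 bases before it. The Tgfb2 window held 2 SMAD cores at 221 and 204 bases before the start and a TATAAA at 31 bases. RefSeq windows of 7 of the 10 genes were counted, and Fn1, Thbs1 and Lox are not among them. The 7 genes gave 10 windows in all, because Postn, Tnc and Spp1 have 2 each and those of Tnc overlap. A SMAD core was found in 8 of the 10, against 49.6% of all 32851 mouse windows of this length, and TATAAA in 5 of the 10, against 13.6%. Besides those of Spp1 and Tgfb2, TATAAA stood 26 bases before 1 Postn start and 126 or 205 bases before the Tnc starts. The overlapping Tnc windows hold the same TATAAA and share 1 GTCTG, so these letters were counted in both. TTCNNNNGAA, the spacing preferred by STAT6, was in 0 of the 10 windows, against 6.95% of all. TGANTCA, a loose form of the AP-1 site with any base allowed in the middle, was in 0 of the 10, against 7.81%. These matches describe letters in the windows and no binding was measured.

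Library depth and tissue content set the frame for these values. The totals of expected counts were 12317805 to 16914475 in anti-IL-4Ra libraries, 10042825 to 14706131 in OVA libraries and 16774285 to 27570666 in saline libraries, and no gene described here was near the level that 3 counts give (0.113 to 0.308 CPM, counts scaled to the TMM-adjusted library total). Markers of lung epithelium summed to 9048 to 20349 CPM in anti-IL-4Ra, 6974 to 16249 in OVA and 18911 to 36025 in saline lungs. Rn45s, the ribosomal RNA precursor, took 7.34 ± 4.69% of counts in anti-IL-4Ra, 7.14 ± 3.36% in OVA and 1.75 ± 0.68% in saline libraries (SD, n = 5 each). Its share was higher in OVA than in saline libraries without overlap (exact two-sided permutation p = 0.00794, the smallest that 5 against 5 allows; adjusted p = 0.0238 over 6 tests of library measures). An 11-gene cardiac muscle list averaged 3.11 ± 1.40 log2 CPM in anti-IL-4Ra, 4.81 ± 1.44 in OVA and 5.26 ± 0.81 in saline libraries, and was lower in anti-IL-4Ra than in saline (exact permutation p = 0.00794, adjusted p = 0.0238). Fits with either measure as a covariate are given below where they change a call or a value by much. In bulk tissue, fewer cells of a type and less RNA per cell cannot be told apart.

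**Figure D1:**
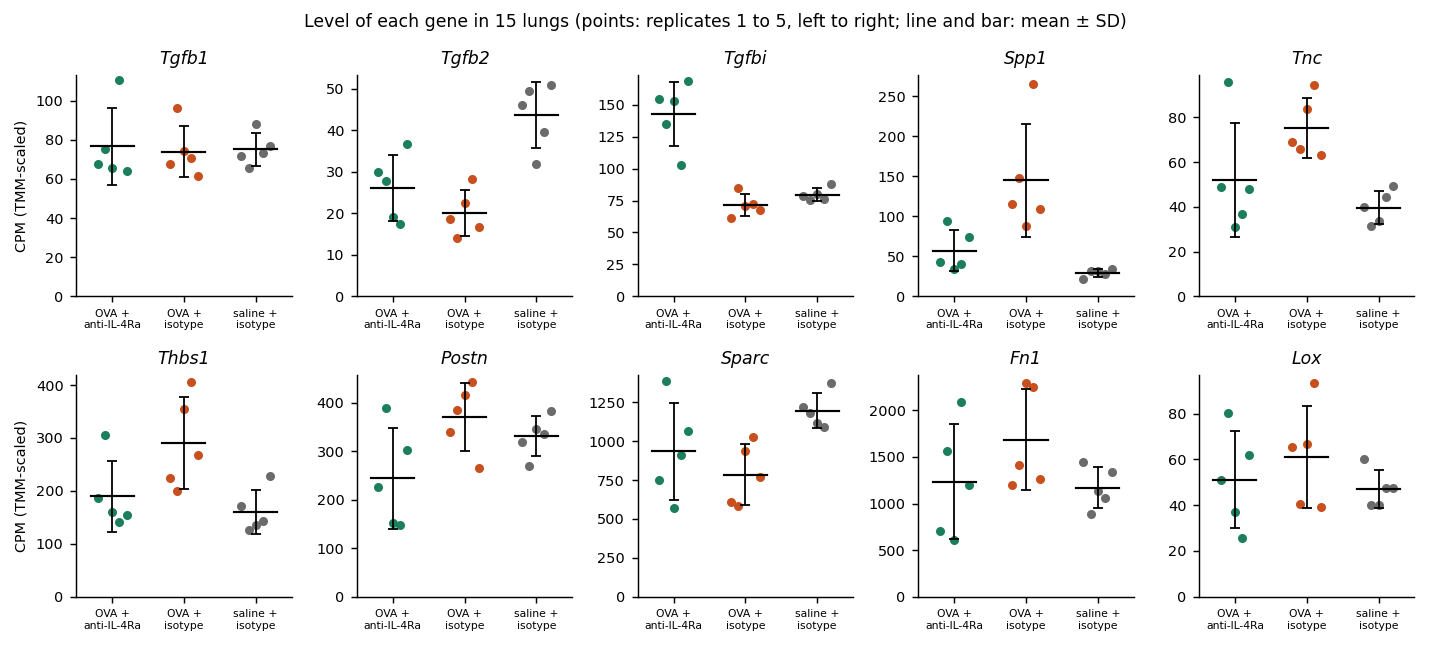
Level of each gene in CPM (y axis, linear from 0) in every lung, with replicates 1 to 5 from left to right and the mean ± SD of each group; green is OVA with anti-IL-4Ra, orange OVA with isotype and grey saline with isotype. All 5 anti-IL-4Ra points of Tgfbi lie above 100 CPM and all 10 other lungs below 90, while Spp1 is high in OVA lungs and Tgfb2 is high in saline lungs.

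Tgfb1 encodes the TGF-beta ligand made by immune and structural cells alike, and it was measured at 76.6 ± 19.6 CPM in anti-IL-4Ra, 74.0 ± 13.2 in OVA and 75.2 ± 8.38 in saline lungs (SD, n = 5 each). Its log2 fold change (log2FC) was -0.02 ± 0.16 (SE, 95% interval -0.36 to 0.31) for OVA against saline and 0.05 ± 0.16 (-0.28 to 0.38) for anti-IL-4Ra against OVA. Neither passed edgeR's quasi-likelihood test (adjusted p = 0.92 and adjusted p = 1.00). In the antibody group 1 lung, replicate 4, stood at 111 CPM while the other 4 ran from 63.8 to 75.2.

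Tgfb2 encodes a second ligand, which epithelium and smooth muscle make. It had 29.8, 27.8, 19.0, 17.5 and 36.6 CPM in the anti-IL-4Ra lungs (replicates 1 to 5), 18.6, 14.0, 22.4, 28.2 and 16.6 CPM in the OVA lungs, and 46.1, 49.6, 31.8, 39.5 and 51.0 CPM in the saline lungs. All 5 OVA lungs lay below all 5 saline lungs, and 4 of the 5 antibody lungs did too. Tgfb2 fell in OVA against saline (log2FC -1.12 ± 0.22, 2.18-fold lower, edgeR adjusted p = 0.00141) and in anti-IL-4Ra against saline (-0.74 ± 0.22, adjusted p = 0.0220). Between the antibody and OVA lungs the log2FC was 0.39 ± 0.22 (95% interval -0.08 to 0.86, adjusted p = 1.00). The call against saline in antibody lungs was lost without anti-IL-4Ra replicate 3 or saline replicate 5 (adjusted p up to 0.0632). With the Rn45s share as a covariate both calls were lost, at -0.57 ± 0.24 for OVA (adjusted p = 0.162) and -0.26 ± 0.23 for anti-IL-4Ra (adjusted p = 0.557), and with the cardiac list the call in antibody lungs was lost at -0.74 ± 0.29 (adjusted p = 0.120). In OVA against saline the Rn45s share and the allergen cannot be fully told apart, because the shares did not overlap.

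Of the 10 genes, 5 were called at an adjusted p under 0.05 in OVA against saline, 3 higher and 2 lower, where 37.1% of all genes tested were called (19.3% higher, 17.8% lower). In 4 of the 10 the OVA and saline lungs did not overlap, against 26.6% of all genes. In anti-IL-4Ra against OVA 1 of the 10 was called, against 0.302% of all genes tested, and that 1 was higher, against 0.138% of all. The same gene was the 1 whose lungs did not overlap, against 1.17% of all, and 5 of the 10 had an unadjusted edgeR p under 0.05, against 5.68%. In anti-IL-4Ra against saline 3 of the 10 were called, 2 higher and 1 lower, against 26.6% of all genes (13.9% higher, 12.7% lower), with no overlap in 2 of them, against 19.8%. The median log2FC of the 10 was 0.27 in OVA against saline, -0.35 in anti-IL-4Ra against OVA and 0.10 in anti-IL-4Ra against saline, beside 0.02, -0.00 and 0.02 over all genes tested. These comparisons share libraries, the OVA group for the first 2 and the saline group for the first and the third, so their values are not independent of each other.

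**Figure D2:**
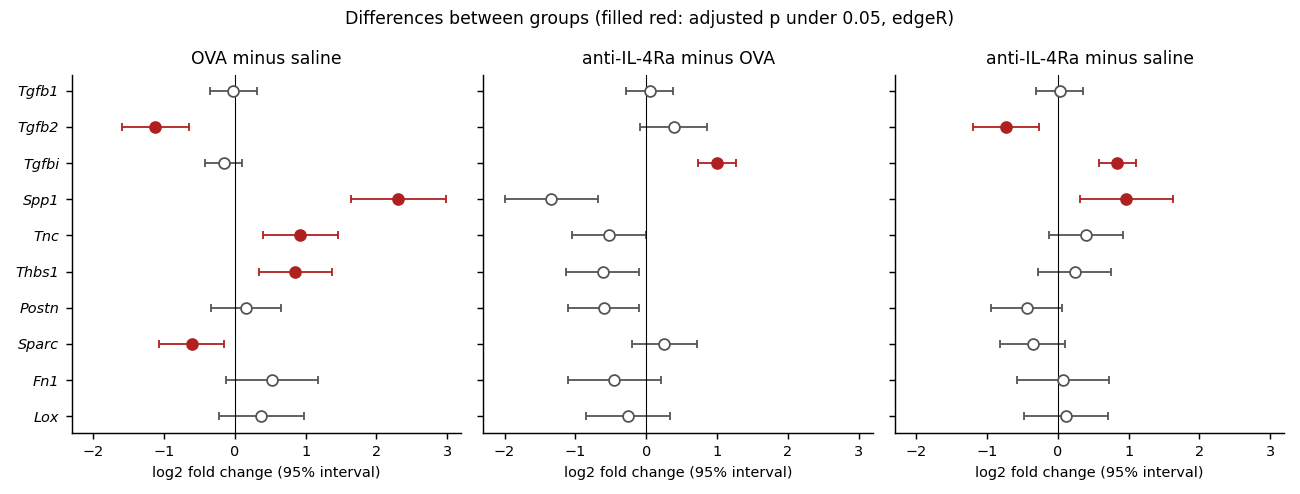
Log2 fold change of each gene (x axis) with its 95% interval in the 3 comparisons, filled red where the edgeR adjusted p was under 0.05. Spp1, Tnc and Thbs1 lie to the right in OVA minus saline and to the left in anti-IL-4Ra minus OVA, where only Tgfbi, at 1.00, is filled.

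Tgfbi, a gene named for its induction by TGF-beta, encodes a secreted adhesion protein related to periostin that binds collagen and integrins and that macrophages also make. It had 154, 135, 153, 103 and 168 CPM in the anti-IL-4Ra lungs, 61.5, 84.5, 70.6, 72.6 and 67.7 CPM in the OVA lungs, and 78.4, 75.5, 80.2, 76.6 and 87.8 CPM in the saline lungs. The lowest antibody lung, replicate 4, stood above the highest of the 10 other lungs. Tgfbi averaged 143 ± 25.3 CPM in anti-IL-4Ra and 71.4 ± 8.46 CPM in OVA lungs (SD, n = 5 each), a log2FC of 1.00 ± 0.13 (95% interval 0.73 to 1.27, 2.00-fold higher, edgeR adjusted p = 0.000942), and ranked 9th of 15905 genes by p in that comparison. It was also higher in anti-IL-4Ra than in saline lungs, at 79.7 ± 4.86 CPM in saline (log2FC 0.84 ± 0.12, adjusted p = 0.000345). In OVA against saline its log2FC was -0.16 ± 0.12 (95% interval -0.42 to 0.11, adjusted p = 0.332).

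The Tgfbi difference between antibody and OVA lungs stayed between 0.93 and 1.12 when each of the 15 libraries was left out in turn, with an edgeR adjusted p of at most 0.00468. It was 0.98 ± 0.12 with the Rn45s share as a covariate (adjusted p = 0.000982) and 0.98 ± 0.15 with the cardiac list (adjusted p = 0.00912). Monocyte and macrophage markers moved with it: 3 of 10 rose in anti-IL-4Ra against OVA, against 0.138% of all genes tested. The list summed to 1769 to 3691 CPM in anti-IL-4Ra, 1246 to 1820 in OVA and 2585 to 3258 in saline lungs. Fcgr1, the high-affinity IgG receptor of monocytes, rose by 1.84 ± 0.22 (adjusted p = 0.000690), Cx3cr1, the fractalkine receptor, by 1.15 ± 0.19 (adjusted p = 0.00897) and Lyz2, the lysozyme of myeloid cells, by 1.18 ± 0.22 (adjusted p = 0.0281). Csf1r, the growth factor receptor of the lineage, had 192 ± 41.9 CPM in anti-IL-4Ra and 196 ± 21.5 CPM in OVA lungs. The part of these cells in the Tgfbi difference was not tested.

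Spp1 encodes osteopontin, a secreted phosphoprotein that binds integrins and CD44 and is made by macrophages, bone cells and epithelium. It had 42.4, 93.5, 34.6, 40.8 and 74.5 CPM in the anti-IL-4Ra lungs, 115, 148, 87.2, 265 and 109.6 CPM in the OVA lungs, and 21.6, 31.2, 31.5, 27.7 and 34.0 CPM in the saline lungs. The lowest OVA lung held more than the highest saline lung, and the antibody lungs lay between, with replicate 2 reaching into the OVA range. Spp1 rose in OVA against saline by 2.31 ± 0.32 on the log2 scale (4.96-fold higher, edgeR adjusted p = 0.000117), the largest change among the 10 genes in any of the 3 comparisons. It also rose in anti-IL-4Ra against saline (log2FC 0.97 ± 0.31, 1.96-fold higher, adjusted p = 0.0298), with no overlap.

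Between antibody and OVA lungs Spp1 did not pass the threshold in the fit used throughout, at a log2FC of -1.34 ± 0.31 (95% interval -1.996 to -0.686, 2.53-fold lower, edgeR adjusted p = 0.107). In the antibody group 4 lungs lay below every OVA lung. The gene passed in DESeq2 (-1.34 ± 0.31, adjusted p = 0.00488), with the Rn45s share as a covariate (-1.49 ± 0.23, adjusted p = 0.00661), with the cardiac list as a covariate (-1.69 ± 0.34, adjusted p = 0.04996) and without anti-IL-4Ra replicate 2 (adjusted p = 0.0398). Over all libraries left out in turn the edgeR adjusted p ran from 0.0398 to 0.323 and the log2FC from -1.57 to -0.98. The call of Spp1 against saline in antibody lungs was lost without anti-IL-4Ra replicate 2 or 5, or without saline replicate 1, 2 or 4 (adjusted p up to 0.0916), and with the cardiac list as a covariate (0.52 ± 0.36, adjusted p = 0.382). With the Rn45s share it was 1.69 ± 0.30 (adjusted p = 0.00745).

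Markers of alveolar macrophages, cells that can make osteopontin, summed to 630.2 to 2951 CPM in anti-IL-4Ra, 1447 to 4805 in OVA and 312 to 378 in saline lungs, the same order of groups as Spp1. Chil3, a chitinase-like protein, carried most of that sum, at 1087 ± 861 CPM in anti-IL-4Ra and 2629 ± 1191 CPM in OVA lungs. Of the 8 genes of the list 2 rose and 3 fell in OVA against saline, against 19.3% and 17.8% of all genes tested. None passed edgeR's test in anti-IL-4Ra against OVA, where 6 had an unadjusted p under 0.05 (5.68% of all genes) and DESeq2 called 2. Itgax, the integrin chain CD11c, had 173 ± 28.7 CPM in anti-IL-4Ra and 285 ± 67.3 CPM in OVA lungs, and Marco, a scavenger receptor, 4.87 ± 2.96 and 1.45 ± 0.803 CPM in the same groups, so the list did not move as 1 block. The part of these cells in the Spp1 levels was not tested.

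Tnc encodes tenascin-C, a large hexameric matrix protein of wounds and remodelled airways. It had 49.1, 95.7, 31.1, 36.6 and 47.9 CPM in the anti-IL-4Ra lungs, 68.8, 66.0, 83.9, 94.3 and 63.0 CPM in the OVA lungs, and 39.7, 31.2, 33.5, 44.6 and 49.2 CPM in the saline lungs. Every OVA lung lay above every saline lung, and 4 of the 5 antibody lungs lay below every OVA lung while replicate 2 exceeded all of them. Tnc rose in OVA against saline (log2FC 0.92 ± 0.25, 1.90-fold higher, edgeR adjusted p = 0.00888). In anti-IL-4Ra against OVA its log2FC was -0.53 ± 0.25 (95% interval -1.05 to -0.01, adjusted p = 0.867), and without antibody replicate 2 it was -0.86 (adjusted p = 0.0585). In anti-IL-4Ra against saline its log2FC was 0.39 ± 0.25 (adjusted p = 0.248), which became 0.85 ± 0.29 with the Rn45s share as a covariate (adjusted p = 0.137) and 0.05 ± 0.31 with the cardiac list (adjusted p = 0.944).

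Thbs1 encodes thrombospondin-1, which platelets store and injured tissue makes, and which can release TGF-beta from its latent form. It had 186, 306, 161, 141 and 155 CPM in the anti-IL-4Ra lungs, 224, 199, 354, 405 and 268 CPM in the OVA lungs, and 171, 126, 135, 143 and 229 CPM in the saline lungs. The OVA and saline lungs overlapped through saline replicate 5, and antibody replicate 2 stood apart from the other 4. Thbs1 rose in OVA against saline (log2FC 0.85 ± 0.24, 1.81-fold higher, edgeR adjusted p = 0.0127), and in anti-IL-4Ra against OVA its log2FC was -0.61 ± 0.24 (95% interval -1.13 to -0.10, adjusted p = 0.673). Platelet and megakaryocyte markers summed to 27.2 to 42.8 CPM in anti-IL-4Ra, 30.1 to 43.0 in OVA and 37.7 to 70.2 in saline lungs. Of these markers, 5 of the 9 tested fell in OVA against saline, against 17.8% of all genes tested. The part of platelets in the Thbs1 levels was not tested.

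The calls of Spp1, Tnc and Thbs1 in OVA against saline held when each library was left out in turn, with log2FC of 1.93 to 2.40, 0.79 to 1.01 and 0.66 to 1.01. With the Rn45s share as a covariate they were 3.19 ± 0.33 for Spp1 (edgeR adjusted p = 0.000113), 1.47 ± 0.31 for Tnc (adjusted p = 0.0164) and 1.22 ± 0.33 for Thbs1 (adjusted p = 0.0483). Because the OVA and saline libraries did not overlap in their Rn45s share, the share and the allergen cannot be fully told apart in that comparison. Of 8 smooth muscle and myofibroblast markers, cells known to make tenascin-C, none was called in OVA against saline by edgeR or DESeq2. Over all genes tested edgeR called 37.1%, and 1 of the 8 markers had an unadjusted p under 0.05. That list summed to 491 to 1002 CPM in anti-IL-4Ra, 563 to 1412 in OVA and 647 to 787 in saline lungs. The part of smooth muscle cells and myofibroblasts in the Tnc levels was not tested.

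**Figure D3:**
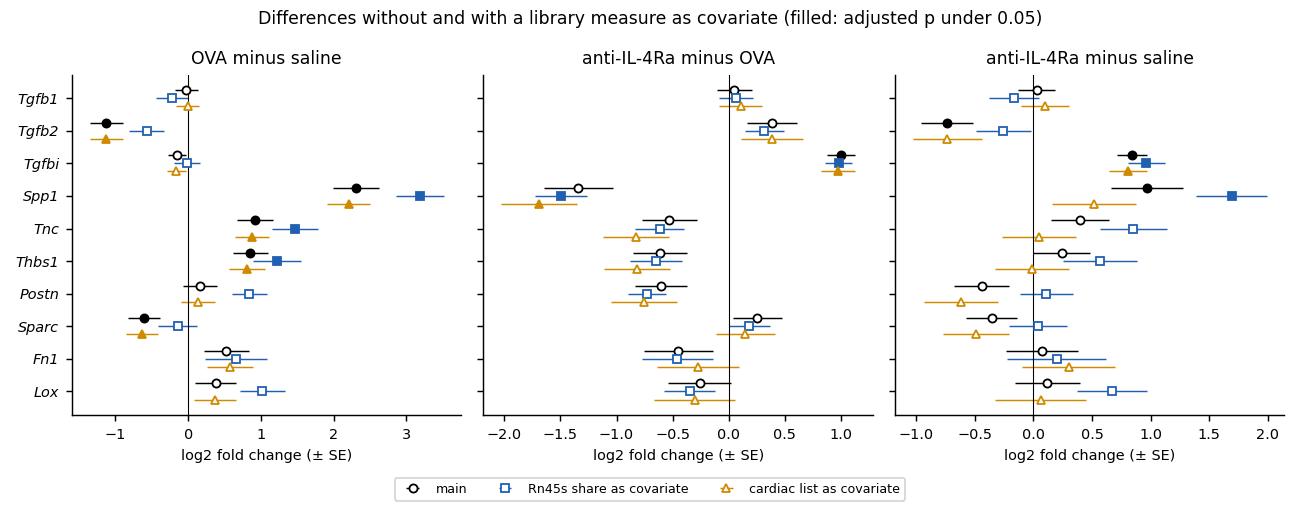
Log2 fold change ± SE of each gene (x axis) without a covariate (circles), with the Rn45s share (squares) and with the cardiac list (triangles), filled where the edgeR adjusted p was under 0.05. Tgfbi stays filled in all 3 fits of anti-IL-4Ra minus OVA, and Tgfb2 and Sparc lose their fill in OVA minus saline with the Rn45s share.

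Postn encodes periostin, the adhesion protein used as a marker of IL-13 activity in human airways. It had 227, 389, 152, 147 and 302 CPM in the anti-IL-4Ra lungs, 339.8, 384, 416, 442 and 266 CPM in the OVA lungs, and 319, 269.7, 346, 335 and 382 CPM in the saline lungs. The 3 groups overlapped, and the antibody lungs split into replicates 1, 3 and 4 below every OVA lung and replicates 2 and 5 within the OVA range. In OVA against saline the log2FC of Postn was 0.16 ± 0.23 (95% interval -0.34 to 0.66, edgeR adjusted p = 0.614), in anti-IL-4Ra against OVA -0.60 ± 0.24 (-1.10 to -0.10, adjusted p = 0.658) and in anti-IL-4Ra against saline -0.44 ± 0.23 (-0.94 to 0.06, adjusted p = 0.175). Without antibody replicate 2, Postn was lower in anti-IL-4Ra than in saline lungs (-0.71, adjusted p = 0.0232), and with the Rn45s share as a covariate that difference was 0.11 (adjusted p = 0.806) and the one of OVA against saline 0.84 ± 0.24 (adjusted p = 0.0585).

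Sparc encodes osteonectin, a collagen-binding protein of fibroblasts and endothelium. It had 748, 1387, 569, 911 and 1065 CPM in the anti-IL-4Ra lungs, 607, 583, 938, 1024 and 769.7 CPM in the OVA lungs, and 1219, 1184, 1117, 1094 and 1377 CPM in the saline lungs. Every OVA lung lay below every saline lung, and the antibody lungs spanned both groups. Sparc fell in OVA against saline (log2FC -0.61 ± 0.22, 1.53-fold lower, edgeR adjusted p = 0.0377). That call was lost without OVA replicate 1, 2 or 5 and without saline replicate 1 or 5 (log2FC -0.77 to -0.52 over all libraries left out in turn, adjusted p up to 0.0934), and with the Rn45s share as a covariate (-0.15 ± 0.26, adjusted p = 0.755). That share did not overlap between OVA and saline libraries, so it cannot be fully told apart from the allergen. In anti-IL-4Ra against OVA the log2FC was 0.25 ± 0.22 (95% interval -0.21 to 0.72), and against saline it was -0.36 ± 0.22 (adjusted p = 0.236; -0.57 and adjusted p = 0.0497 without antibody replicate 2).

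Markers of several structural cell types were also lower in OVA than in saline lungs, a comparison in which 17.8% of all genes tested fell. Of 10 fibroblast markers 8 fell, and the list summed to 494 to 1302 CPM in anti-IL-4Ra, 475 to 1037 in OVA and 1572 to 2074 in saline lungs. Of 10 endothelial markers 9 fell (1543 to 3576 CPM in anti-IL-4Ra, 1620 to 3142 in OVA, 3947 to 5280 in saline), and 5 of 6 pericyte markers fell (244 to 340.4, 183 to 331 and 409.9 to 599 CPM in the same groups). No OVA lung reached the lowest saline lung in any of these 3 sums. Of 10 epithelial markers 5 fell, in a sum whose ranges are given above. The smooth muscle and myofibroblast markers, whose counts of calls are given above, had a median log2FC of 0.26. The part of these cells in the lower Sparc and Tgfb2 levels was not tested.

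Fn1 encodes fibronectin, the adhesive glycoprotein of provisional matrix, and Lox encodes lysyl oxidase, which cross-links collagen and elastin. Fn1 ran from 609 to 2094 CPM in anti-IL-4Ra, 1198 to 2299 in OVA and 884 to 1448 in saline lungs, and replicates 3 and 4 of the OVA group stood above all other OVA and all saline lungs. Its log2FC was 0.52 ± 0.31 (95% interval -0.13 to 1.18, edgeR adjusted p = 0.193) in OVA against saline and -0.45 ± 0.31 (-1.10 to 0.20) in anti-IL-4Ra against OVA. Lox ran from 25.8 to 80.5 CPM in anti-IL-4Ra, 39.1 to 93.6 in OVA and 39.9 to 60.3 in saline lungs, and the 3 groups overlapped. Its log2FC was 0.38 ± 0.28 (-0.22 to 0.97, adjusted p = 0.305) in OVA against saline and -0.26 ± 0.28 (-0.85 to 0.34) in anti-IL-4Ra against OVA. With the Rn45s share as a covariate, Lox in OVA against saline was 1.02 ± 0.32 (adjusted p = 0.0730). With 5 lungs a group, a change of Fn1 or Lox of any size inside these intervals was not excluded.

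The 10 genes also varied among lungs of 1 group, and several did so together. In the anti-IL-4Ra group replicate 2 was the highest lung for 6 of the 10 genes, replicate 3 the lowest for 4 and replicate 4 the lowest for 5 and the highest for 2, Tgfb1 and Fn1. In the OVA group replicate 4 was the highest for 7 genes, and in the saline group replicate 5 was the highest for 7 and replicate 2 the lowest for 7. The Rn45s share was 3.10% in antibody replicate 2 and 1.65% in replicate 5, against 9.79 to 12.4% in replicates 1, 3 and 4, and 4.31% in OVA replicate 4, the lowest of its group. In the saline group it was 1.24% in replicate 5 and 1.19% in replicate 2. The cardiac list was lowest of all 15 libraries in antibody replicate 2, at 1.28 log2 CPM. The part of either measure in this variation was not tested.

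**Figure D4:**
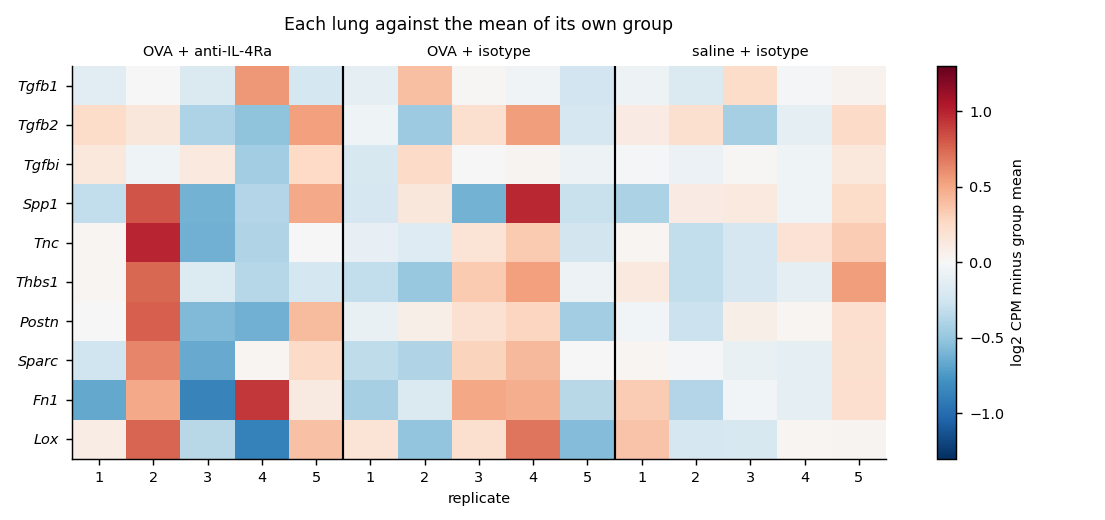
Difference of each lung from the mean of its own group in log2 CPM (colour, red higher and blue lower) for each gene (rows) and replicate (columns). Antibody replicate 2 is red for Spp1, Tnc, Thbs1, Postn, Sparc, Fn1 and Lox, and antibody replicate 3 is blue for the same genes.

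The genes whose pattern over the 15 libraries was most like that of each member were found among 15194 other genes with a mean of at least 1 CPM, by the smallest root mean square difference of centred log2 CPM. Tgfbi was nearest to Sirpa, an inhibitory receptor of myeloid cells (0.23), and Cybb, the catalytic chain of the phagocyte oxidase (0.24), with its own spread around its mean at 0.46. Spp1 was nearest to Ccl9, a macrophage chemokine (0.33), and Tmem26 (0.44), against a spread of 1.02. Tnc was nearest to Mrc1, the mannose receptor (0.24), and Gm10791 (0.27). Thbs1 was nearest to Mest (0.26) and the collagen VI gene Col6a1 (0.26), Postn to Pcdhb15 (0.23) and Gpm6b (0.25), and Fn1 to the galectin gene Lgals3 (0.29) and the cathepsin gene Ctsl (0.32).

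Among the genes that were lower or flat, Tgfb2 was nearest to Hs2st1, a heparan sulfate sulfotransferase (0.15), and Sdc2, the proteoglycan syndecan-2 (0.16), against a spread of 0.58. Sparc was nearest to Cpq (0.11) and Fam115a (0.14), against a spread of 0.42. Lox was nearest to Pi15 (0.25) and Cysltr1, the leukotriene receptor (0.25), and Tgfb1 to Eif3k (0.0835) and Mrps26 (0.0998). For Tgfb1, whose own spread was 0.23, nearness to genes of translation describes mainly a flat profile. These distances share the depth and the tissue content of the same 15 libraries and carry no test.

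The rest of the pathway was followed in 8 lists holding 90 distinct genes, 88 of them tested. In OVA against saline 48 of the 88 were called by edgeR, 10 higher and 38 lower, with a median log2FC of -0.50. That was 54.5%, against 37.1% of all genes tested (19.3% higher, 17.8% lower). Against saline, antibody lungs gave 36 calls, 8 higher and 28 lower, with a median of -0.33. That was 40.9%, against 26.6% of all (13.9% higher, 12.7% lower). In anti-IL-4Ra against OVA none was called by edgeR or by DESeq2, where edgeR called 0.302% of all genes. There 9 had an unadjusted edgeR p under 0.05, against 5.68% of all, 6 higher and 3 lower, with a median log2FC of 0.11. The counts in each list below stand beside these same shares of all genes.

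Of 5 receptors and co-receptors 4 fell in OVA against saline and none rose (median log2FC -1.19), against 17.8% and 19.3% of all genes tested. Tgfbr3, the betaglycan that presents TGF-beta2 to the signalling receptors, had 98.5 ± 23.5 CPM in OVA and 247 ± 34.6 CPM in saline lungs (log2FC -1.32 ± 0.19, edgeR adjusted p = 0.000173). Eng, the endothelial co-receptor endoglin, fell by 1.86 ± 0.30, Acvrl1, the endothelial type I receptor, by 1.19 ± 0.24, and Tgfbr2, the ligand-binding receptor kinase, by 0.61 ± 0.12. In antibody lungs against saline, Tgfbr3 (-1.05 ± 0.19), Eng (-1.49 ± 0.30) and Acvrl1 (-1.19 ± 0.24) were called lower and Tgfbr1, the type I kinase, higher (0.62 ± 0.21, adjusted p = 0.0419), a call lost in 9 of the 15 fits that leave out 1 library. Endothelial markers, given above, fell in the same lungs.

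Downstream, 6 of 9 SMAD genes and regulators fell in OVA against saline and none rose (median -0.52), against 17.8% and 19.3% of all genes tested. Smad3, the main transcriptional mediator, had 55.8 ± 5.38 CPM in OVA and 79.9 ± 5.38 CPM in saline lungs (log2FC -0.52 ± 0.09, edgeR adjusted p = 0.000713). The inhibitors fell too, Smurf2 by 0.85 ± 0.16, Ski by 0.60 ± 0.11 and Smad7, the feedback inhibitor that TGF-beta itself induces, by 0.57 ± 0.12. In antibody lungs 5 of the 9 fell against saline, among them Smad7 (-0.59 ± 0.12), Smurf2 (-0.68 ± 0.16), Ski (-0.46 ± 0.11) and Smad6 (-0.93 ± 0.24).

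The 12 target genes moved both ways, 3 higher and 3 lower in OVA against saline (median 0.05), against 19.3% and 17.8% of all genes tested. Bhlhe40, a transcription factor that other cytokines also induce, had 106 ± 20.8 CPM in OVA and 57.0 ± 6.05 CPM in saline lungs (log2FC 0.90 ± 0.13, edgeR adjusted p = 0.000162), and Adam19, a metalloprotease, rose by 0.52 ± 0.13. Tsc22d1 fell by 0.61 ± 0.13 and Ldlrad4, an inhibitor of TGF-beta signalling, by 0.42 ± 0.12. Against saline, 3 rose and 2 fell in antibody lungs. Bhlhe40 was at 0.74 ± 0.13, Il11, a fibrosis cytokine, at 1.13 ± 0.36, Adam19 at 0.41 ± 0.13 and Tgfb1i1 at -0.83 ± 0.26. The level of Il11 was low, at 1.44 ± 0.49 CPM (SD) in antibody lungs. The calls of Il11, Adam19 and Tgfb1i1 were each lost in 5 or more of the 15 fits without 1 library.

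Genes that hold TGF-beta latent or set it free were called in 7 of 12 cases in OVA against saline, against 37.1% of all genes tested. The calls were 2 higher and 5 lower, and the list median was -0.31. Ltbp4, a latent TGF-beta binding protein of elastic fibres, had 161 ± 68.2 CPM in OVA and 655 ± 66.5 CPM in saline lungs (log2FC -2.02 ± 0.28, edgeR adjusted p = 0.000114), and Ltbp3 fell by 0.78 ± 0.16. Nrros, which anchors latent TGF-beta on macrophages and microglia, rose by 0.84 ± 0.16. In antibody lungs against saline, Ltbp4 was at -1.72 ± 0.27, Ltbp3 at -0.66 ± 0.16, Nrros at 0.50 ± 0.16 and Lrrc32, which anchors latent TGF-beta on regulatory T cells and endothelium, at -0.63 ± 0.21, all called. The calls of Nrros and Lrrc32 were lost in 5 and 7 of the 15 fits without 1 library.

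**Figure D5:**
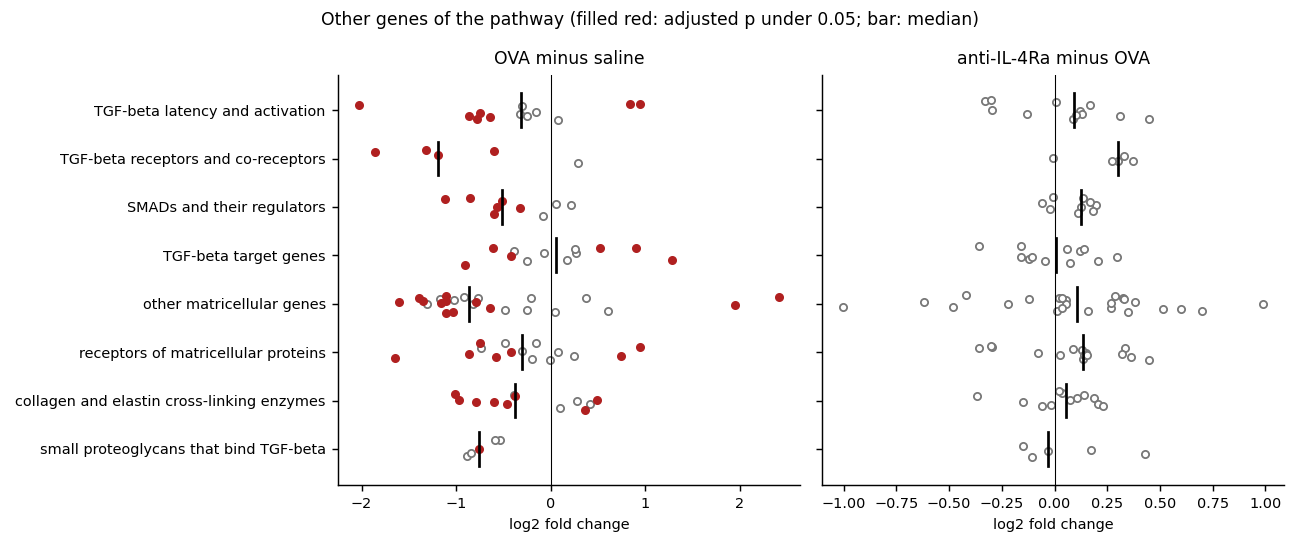
Log2 fold change of every tested gene of the 8 pathway lists (x axis; 1 point a gene, bar at the median, filled red where the edgeR adjusted p was under 0.05). Most filled points in OVA minus saline lie left of 0, and no point is filled in anti-IL-4Ra minus OVA.

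Of 24 other matricellular genes tested, 2 rose and 10 fell in OVA against saline (median -0.87), against 19.3% and 17.8% of all genes tested. Thbs3, a thrombospondin of the pentameric class, had 26.4 ± 4.18 CPM in OVA and 67.4 ± 5.94 CPM in saline lungs (log2FC -1.35 ± 0.18, edgeR adjusted p = 9.17e-05). Wisp2, a CCN family protein, fell by 1.39 ± 0.25, Vtn, vitronectin, by 1.61 ± 0.30, and Tnn, a tenascin of bone and stroma, by 1.11 ± 0.23. Antibody lungs had 1 gene higher and 8 lower than saline lungs, with Thbs3 at -1.08 ± 0.18, Vtn at -1.45 ± 0.30, Cyr61 at -1.02 ± 0.28 and Ecm1 at -0.84 ± 0.24.

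Their cell-surface receptors were called in 7 of 15 cases in OVA against saline, against 37.1% of all genes tested. The calls were 2 higher and 5 lower (list median -0.31), in a list that shares its integrin chains with the activation list. Itga8, the integrin of myofibroblasts and pericytes that binds several of these proteins, had 174 ± 66.4 CPM in OVA and 544 ± 57.5 CPM in saline lungs (log2FC -1.65 ± 0.37, edgeR adjusted p = 0.00291). Itgb5, a partner of the alpha-v chain, fell by 0.87 ± 0.15 and Itga9, a tenascin-C and osteopontin receptor, by 0.58 ± 0.14, while Itgb8, which activates TGF-beta, rose by 0.95 ± 0.24 (5.69 ± 1.01 CPM in OVA and 2.93 ± 1.25 CPM in saline lungs). In anti-IL-4Ra against saline Itga4 (0.88 ± 0.19) and the osteopontin receptor Cd44 (0.61 ± 0.14) rose, and Itga8 (-1.33 ± 0.36) and Cd36 (-1.10 ± 0.39), a thrombospondin receptor, fell. The call of Cd36 was lost in 8 of the 15 fits without 1 library.

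Of 12 enzymes that modify or cross-link collagen and elastin, 2 rose and 6 fell in OVA against saline (median -0.38). Of all genes tested, 19.3% rose and 17.8% fell. Loxl1, the lysyl oxidase of elastic fibres, had 55.8 ± 18.5 CPM in OVA and 113 ± 13.8 CPM in saline lungs (log2FC -1.01 ± 0.24, edgeR adjusted p = 0.00431), and Plod2, P4ha2 and P4ha1, hydroxylases of collagen, fell by 0.97 ± 0.26, 0.79 ± 0.18 and 0.60 ± 0.15. In the antibody group 5 fell against saline and none rose, among them P4ha1 (-0.53 ± 0.15), Loxl1 (-0.83 ± 0.24), Tgm2 (-0.52 ± 0.15) and Plod2 (-0.83 ± 0.25). The calls of Loxl1, Tgm2 and Plod2 were lost in 2, 3 and 4 of the 15 fits without 1 library (edgeR adjusted p up to 0.0525, 0.0632 and 0.0712). Of 5 small proteoglycans that bind TGF-beta, Bgn, biglycan, was the 1 called in OVA against saline, at 477 ± 187 CPM in OVA and 808 ± 94.4 CPM in saline lungs (-0.76 ± 0.26, adjusted p = 0.0326), and that call was lost in 6 of the 15 fits without 1 library. None of the 5 was called in anti-IL-4Ra against saline by edgeR or DESeq2, and 1 had an unadjusted p under 0.05.

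Fewer pathway calls were made with the Rn45s share in the fit. The OVA and saline libraries did not overlap in that share, so the share and the allergen cannot be fully told apart there. With the share as a covariate, 1 call remained in OVA against saline in each of 5 lists: Ltbp4, Tgfbr3, Smad3, Bhlhe40 and Thbs3. None remained in the lists of cross-linking enzymes, surface receptors and proteoglycans. Over all genes tested the number of calls fell to 752 with that covariate, against 5898 without it. With the cardiac list as a covariate, the counts of calls in each of the 8 lists stayed within 1 of those given in OVA against saline. Antibody lungs against saline kept fewer. There the Rn45s share left 373 calls over all genes, against 4236 without it, and of the pathway calls only Bhlhe40 and Cd44. The cardiac list left 1746 calls over all genes, and in the pathway lists Ltbp4, Acvrl1, Eng, Tgfbr3, Smad6, Smad7, Smurf2, Bhlhe40, Thbs3 and Itga4 kept their calls, while Itgb8 and Smoc1 were called with that covariate and not without it.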

How the data were processed

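The authors deposited expected counts (RSEM estimates) per gene symbol, without normalization, 1 column a lung. Per the submitters' processing notes, RSEM 1.2.15 and Bowtie2 2.1.0 were used. RSEM shares reads among similar genes by an estimate, so 17.0 to 20.0% of values per library were not whole (tolerance 0.005). A human build, hg38, appears in these notes. The symbols are those of mouse genes: 22542 of 24054 are current mouse RefSeq symbols and 1372 more are mouse synonyms. No gene coordinates are taken from the counts. Per the labels' protocols, RNA from snap-frozen lungs was made into strand-specific dUTP libraries. Both a ribosomal RNA depletion and an oligo-dT purification are named, and which of them set the RNA classes sequenced is not given in these protocols.

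Counts were rounded, filtered with filterByExpr (15905 of 24054 genes kept), scaled by TMM and fitted over all 15 libraries with edgeR 4.0.16 (R 4.3.3; two-sided quasi-likelihood test, Benjamini-Hochberg adjustment over all genes tested, threshold 0.05). The labels call the replicates biological, and the p-values reflect how far these lungs differ. SE were taken from the F statistic, log2 CPM used a prior count of 2, and levels are not comparable between genes because no lengths entered. No pair of replicates was a duplicate (lowest chi-square per degree of freedom of a pair 10.0). The test was checked on simulated counts. DESeq2 1.42.0, RLE scaling, no filter, 2 groups at a time, a replicate block, the Rn45s share or the cardiac list as a covariate, and each library left out were the alternatives. As a covariate, the Rn45s share entered as the log2 of its percentage. The pathway lists with a covariate were added after seeing the data. The genes named are the 10 members, up to 4 called genes with the smallest adjusted p per pathway list and comparison, and the 2 nearest genes of each member; marker genes named were chosen after their values were seen. The members and the gene lists were chosen with earlier results of these data known.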

Additional observations from a re-analysis of the deposited data

Results flagged for a closer look

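In 30 groups of 5 lungs (10 genes in 3 groups), 3 had 1 lung further from the rest than Dixon's critical value of 0.710 allows, and chance flags about 1 in 20 groups. All 3 were antibody lungs. Tnc was 95.7 CPM and Thbs1 was 306 CPM in anti-IL-4Ra replicate 2, the antibody lung that was highest for 6 of the 10 genes. Tgfb1 was 111 CPM in anti-IL-4Ra replicate 4, the lung with the highest Rn45s share of its group (12.4%). The part of RNA content in these values was not tested.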

How the results depend on the processing

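Direction and call of Tgfbi in anti-IL-4Ra against OVA and against saline, and of Spp1, Tnc and Thbs1 in OVA against saline, held in every alternative run. The calls of Tgfb2, of Sparc and of Spp1 against saline in antibody lungs did not, as given with their values above. With the Rn45s share as a covariate 752 genes (486 higher, 266 lower) and 3 members were called in OVA against saline, 373 genes (322 and 51) in anti-IL-4Ra against saline, and 2 members in anti-IL-4Ra against OVA. With the cardiac list as a covariate 1746 genes (1022 and 724) and 1 member were called in anti-IL-4Ra against saline, and 2 members in anti-IL-4Ra against OVA. DESeq2 called 132 genes (62 and 70), among them all 48, and 2 members in anti-IL-4Ra against OVA; each time the 2 were Spp1 and Tgfbi. The cause was not tested.

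Replicate numbers did not pair the lungs (2 of 15 same-numbered pairs had a correlation of deviations over 0.1, range -0.55 to 0.35; 2 of 15 libraries matched their own number best). With a replicate block 26 genes (11 and 15), all among the 48, were called in anti-IL-4Ra against OVA, Sparc in OVA against saline was -0.61 (edgeR adjusted p = 0.0729), and Fn1 in anti-IL-4Ra against saline turned to -0.026. Also in anti-IL-4Ra against saline, none of them called, Postn turned to 0.11, Sparc to 0.038 and Tgfb1 to -0.17 with the Rn45s share, and Thbs1 to -0.011 with the cardiac list.

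Leaving out 1 library at a time gave 4776 to 6619 genes and 4 to 5 members called in OVA against saline, 32 to 61 and 1 to 2 in anti-IL-4Ra against OVA, and 2844 to 4679 and 2 to 4 in anti-IL-4Ra against saline. Log2FC that crossed 0 without being called were Tgfb1 in all 3 comparisons (-0.14 to 0.039, -0.10 to 0.16 and -0.17 to 0.089), and in anti-IL-4Ra against saline Fn1 (-0.22 to 0.25), Thbs1 (-0.034 to 0.40) and Lox (-0.13 to 0.27). The Rn45s difference was 4.07 to 6.10 percentage points in OVA against saline, -1.06 to 1.63 in anti-IL-4Ra against OVA and 4.34 to 7.02 in anti-IL-4Ra against saline. The cardiac difference was -0.85 to 0.029, -2.17 to -1.24 and -2.43 to -1.69 log2 CPM in the same order.

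With 5 lungs a group and 10042825 to 27570666 counts a library, the spread between lungs and not counting error sets the intervals of these genes. Floors cover counting error only.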
